A study of Mus musculus with 6 samples.

Results

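The 10 growth factor genes Areg, Ereg, Hbegf, Tgfa, Kitl, Csf1, Pdgfa, Pdgfb, Igf1 and Hgf were followed in tumor-associated macrophages (TAMs), among the 55421 genes of the deposited count table. All 10 symbols were found once each in the annotation. The members were chosen on their levels and their difference between the genotypes in these same libraries, so their folds, intervals and standing against the threshold over all genes describe them and are no test of that difference. TAMs carrying floxed Pdcd1 alleles without Cre (Pdcd1f/f) were compared with TAMs from Pdcd1f/fLysMcre mice, in which Cre driven by the lysozyme (Lyz2) promoter deletes Pdcd1, the gene for PD-1, in myeloid cells. Both genotypes carried the floxed alleles and both had received fibrosarcoma cells. The CD11b+F4/80+ cells were collected on day 15, with 3 libraries for each genotype. The study used mice of 8 to 12 weeks, and no other treatment is named for these cells. Whether a library came from 1 mouse or from pooled mice was not given in the sources used here, so p-values measure only the spread between these libraries, which may be technical.

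The growth factors followed here are ligands of receptor tyrosine kinases on neighbouring or on the same cells. The proteins of Areg, Ereg, Hbegf and Tgfa are made as membrane-bound precursors, are cut off by proteases such as ADAM17 and bind EGFR or ERBB family receptors on epithelial and stromal cells. Kitl encodes stem cell factor, the ligand of KIT, and Csf1 the ligand on which macrophages themselves depend, while the platelet-derived growth factors, IGF1 and HGF act largely on fibroblasts, endothelial and tumor cells, and macrophages are a well-known source of several of them in wounds and tumors.

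Total counts ranged from 41833823 to 51417209 per library. The targeted gene Pdcd1 had 10 to 15 counts per library in Pdcd1f/f and 7 to 16 in Pdcd1f/fLysMcre TAMs, which does not show the deletion. Lyz2 separated the genotypes as labelled, with 208000 to 225200 normalized counts in Pdcd1f/f and 404.8 to 465.4 in Pdcd1f/fLysMcre libraries. Because the Pdcd1f/f mice had no Cre, effects of Cre and of the loss of Lyz2 transcripts cannot be told apart from those of Pdcd1 deletion for any gene below. The summed level of 10 macrophage marker genes was 14000 to 16000 TPM (transcripts scaled by length and depth) in Pdcd1f/f and 11200 to 12300 TPM in Pdcd1f/fLysMcre libraries, and 7 of the 10 were lower past the threshold. This was 70% of the markers, against 3.01% of all genes tested that were lower past the threshold. In bulk libraries fewer cells of a type and less RNA per cell cannot be told apart. The Y-linked genes summed to 1545 to 1914 normalized counts in Pdcd1f/f and to 6267 to 7233 in Pdcd1f/fLysMcre libraries. Xist, expressed in female cells, had 17320 to 26510 and 8530 to 13140 normalized counts, so transcripts of both kinds were counted in every library. Whether libraries pooled mice of both sexes was not tested. A difference in sex composition cannot be told apart from the genotype for any gene below. Pdcd1f/f replicate 1 and Pdcd1f/fLysMcre replicate 2 stood apart from the other 4 libraries, because the deviation of a gene from its genotype mean fell with its GC content there, with Spearman correlations of −0.788 and −0.736 across 9534 genes, against 0.21 to 0.754 in the others. Genes are not independent replicates, and for the members, receptors, binding genes and other growth factors named whose call changes without these libraries, or with offsets for GC and length, those values are given beside the result.

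Among the 10 growth factors, 9 passed the filter on low counts. By way of description, 5 of these lay past the threshold of adjusted p under 0.05 in the edgeR fit of all 14469 genes tested, and no p is given for a member. Areg, Ereg, Hbegf and Kitl were higher in Pdcd1f/fLysMcre TAMs and Igf1 was lower. Of all genes tested, 5.43% passed this threshold, 2.42% as higher and 3.01% as lower. The 3 libraries of one genotype did not overlap the 3 of the other for 6 members, as was so for 27.5% of all genes tested. Since the members were chosen on this contrast, nothing is read from these shares. The median log2 fold change of the 9 genes was 0.11, against −0.0026 over all genes tested, and their summed level was 301 to 314 TPM in Pdcd1f/f and 368 to 385 TPM in Pdcd1f/fLysMcre libraries.

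**Figure D1:**
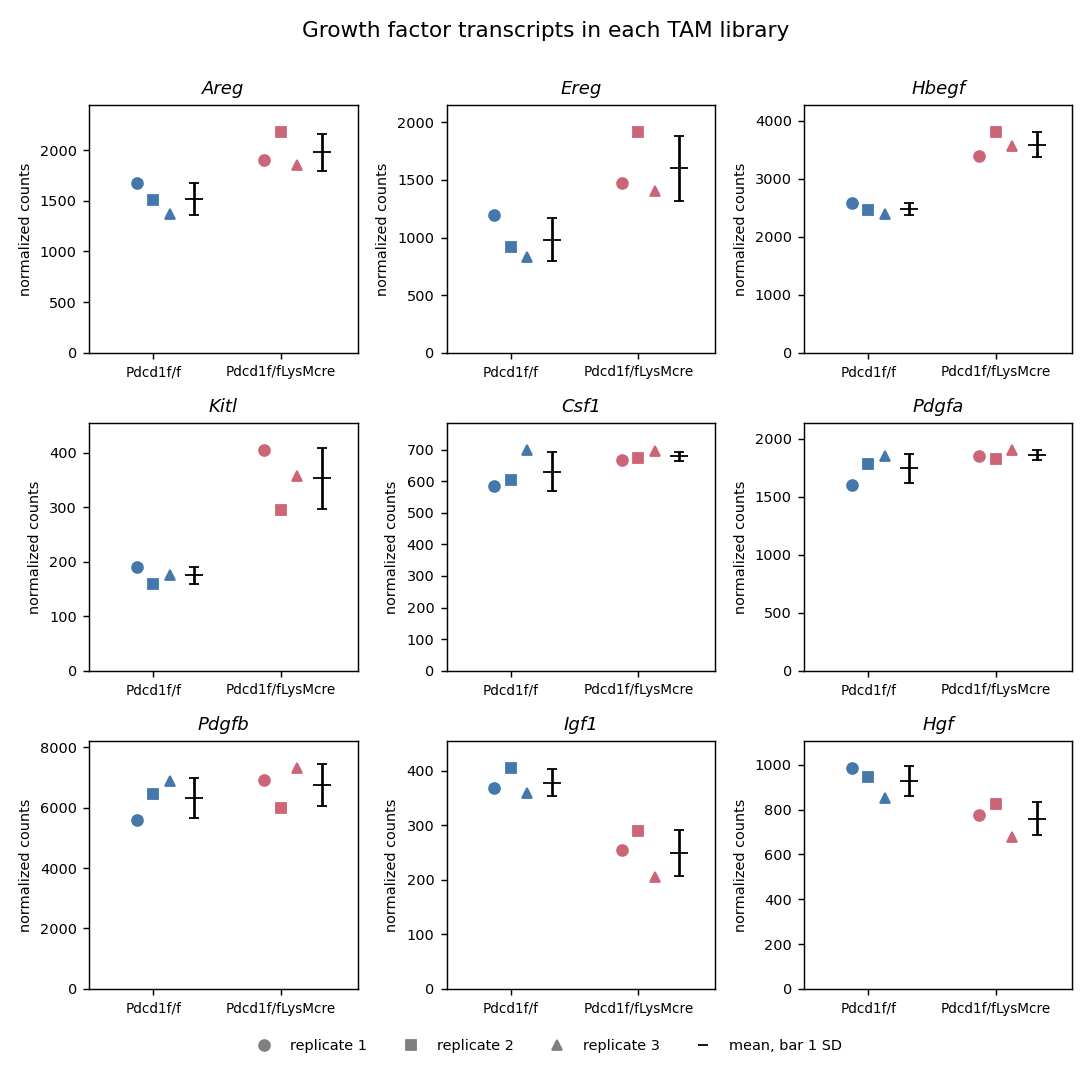
Normalized counts (vertical axes, starting at 0) of the 9 detected growth factors in each library, by genotype (horizontal axes), with the mean and SD of 3 libraries in black. The genotypes do not overlap for Areg, Ereg, Hbegf, Kitl, Igf1 and Hgf, and they overlap for Csf1, Pdgfa and Pdgfb.

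Of the 4 EGF family genes among the members, 3 were higher in Pdcd1f/fLysMcre TAMs and the other one, Tgfa, was close to 0. Other genes of the family, from the list of further growth factors and named after their values were seen, had log2 fold changes of −0.74 for Nrg4, −0.15 for Nrg1, −0.13 for Egf and 0.86 for Btc (adjusted p = 0.0717, 0.252, 0.825 and 0.324 from edgeR), and Epgn and Nrg2 were too low to test. Nrg4 and Nrg1, genes of the neuregulins, passed as lower with GC and length offsets in edgeR (log2 fold changes −0.81 and −0.25, adjusted p = 0.0157 and 0.00854). Nrg1 also passed without both libraries that stood apart (adjusted p = 0.027 from edgeR), and Nrg4 passed with DESeq2 (adjusted p = 0.0315), without the low-count filter and without Pdcd1f/f replicate 1 (adjusted p = 0.0109 and 0.0484 from edgeR). Values are the authors' normalized counts for Pdcd1f/f replicates 1, 2 and 3 and then Pdcd1f/fLysMcre replicates 1, 2 and 3. Hbegf encodes heparin-binding EGF-like growth factor, a ligand of EGFR and ERBB4 (chromosome 18, 36504927 to 36515805 of GRCm38). Hbegf had 2585, 2456 and 2390 against 3391, 3816 and 3565 normalized counts. The lowest Pdcd1f/fLysMcre library lay above the highest Pdcd1f/f library, and the spread within each genotype was small beside the gap. The means of 2477 ± 99.0 and 3591 ± 214 (SD, n = 3) gave a 1.45-fold difference with a log2 fold change of 0.54 ± 0.07 (SE) and a 95% interval of 0.38 to 0.69. Its log2 fold change stayed between 0.49 and 0.59 in all 13 alternative fits.

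Ereg, which encodes epiregulin, a ligand of EGFR and ERBB4, lies on chromosome 5 from 91074622 to 91093646. Ereg had 1192, 919.5 and 830.2 normalized counts in Pdcd1f/f libraries and 1472, 1920 and 1408 in Pdcd1f/fLysMcre libraries. The genotypes did not overlap, but Ereg was the most variable member in Pdcd1f/f TAMs, with a coefficient of variation of 19.2%. The highest library of each genotype was the one that stood apart by GC content, and the Ereg transcript, with 39.2% GC, is poor in GC. Ereg rose from 980.4 ± 188 to 1600 ± 279 (SD, n = 3), 1.63-fold, with a log2 fold change of 0.71 ± 0.15 (SE) and a 95% interval of 0.38 to 1.03. With GC and length offsets its log2 fold change was 0.60, and without both libraries that stood apart it was 0.72.

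Areg, which encodes amphiregulin, an EGFR ligand made by several leukocytes, starts 46 kb downstream of Ereg on the same strand (chromosome 5, 91139599 to 91148432). Areg had 1681, 1508 and 1366 normalized counts in Pdcd1f/f and 1900, 2185 and 1850 in Pdcd1f/fLysMcre libraries. Relative to its level, Areg had the narrowest gap of the members past the threshold that were higher. Its highest Pdcd1f/f library lay a little below its lowest Pdcd1f/fLysMcre library. The mean went from 1518 ± 158 to 1979 ± 180.3 (SD, n = 3), 1.30-fold, with a log2 fold change of 0.38 ± 0.10 (SE) and a 95% interval of 0.17 to 0.59. Of the fits that left out 1 library each, only that without Pdcd1f/f replicate 1 kept Areg past the threshold, and its log2 fold change lay between 0.31 and 0.45. Ereg kept its call without Pdcd1f/f replicate 1 or Pdcd1f/fLysMcre replicate 3 and lost it without each of the other 4 libraries, with log2 fold changes of 0.55 to 0.86.

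Promoters from the RefSeq table used here (GRCm38.p6) were searched for 7 of the 10 members. Each window held 250 bases before and 50 after a transcript start. No promoter of Pdgfb, Ereg or Hbegf was searched, so nothing is said about theirs. The promoter of Areg is shown because Areg and Kitl, members of different families, were the only ones of the 7 with TATAAA in this window. They were set together after their values were seen. Ereg and Hbegf, the other members that were higher, were not searched, so nothing is read from TATAAA about the direction of change. The motif letters searched were TATAAA as the TATA box, TGACGTCA as the cyclic AMP response element, TGANTCA for AP-1, CACGTG as the E-box, and CCAAT. They were searched on both strands, and capitals mark them. TATAAA occurs in 13.6% of the 32851 promoters of the table, TGACGTCA in 1.79%, TGANTCA in 7.81%, CACGTG in 7.15% and CCAAT in 37.4%. In the Areg promoter TGACGTCA lies 61 to 54 bases and TATAAA 31 to 26 bases before the start. The 250 bases before the start of Areg, chr5:91139349-91139598 on the plus strand, and the 30 bases before that of Kitl, chr10:100015791-100015820 on the plus strand, which GENCODE places in an exon of a longer Kitl transcript, read as follows.
Areg: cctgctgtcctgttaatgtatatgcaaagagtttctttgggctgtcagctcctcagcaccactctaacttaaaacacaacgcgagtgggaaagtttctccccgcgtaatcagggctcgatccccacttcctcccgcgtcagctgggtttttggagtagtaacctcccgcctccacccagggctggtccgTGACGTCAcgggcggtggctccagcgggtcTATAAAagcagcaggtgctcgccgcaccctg
Kitl: agctgTATAAAaagcgctggcggcgcagca
The Igf1 promoter holds TGANTCA 37 to 31 bases and CCAAT 142 to 138 bases before the start, and an Hgf window holds CCAAT after its start. No CACGTG was found in the 7 promoters. A match of letters is a description of the window and not evidence that a factor binds there.

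Transcripts of Tgfa, which encodes the EGFR ligand TGFα, were counted once in Pdcd1f/f replicate 2 and once in Pdcd1f/fLysMcre replicate 2 and were at 0 in the other 4 libraries. Tgfa was not tested. At this depth 3 counts correspond to 0.0583 to 0.0717 CPM (counts scaled to library size), so Tgfa was not detectable as a transcript of these TAMs, and this limit covers counting error only. Summed per length, Areg, Ereg and Hbegf reached 158, 138 and 125 TPM in Pdcd1f/f libraries and 185, 218 and 186 TPM in Pdcd1f/fLysMcre libraries. Areg supplied the greater part of this sum, with 87.7 ± 11.0 TPM in Pdcd1f/f and 116 ± 10.8 TPM in Pdcd1f/fLysMcre TAMs, before Hbegf with 35.9 ± 2.20 and 52.9 ± 3.40 TPM and Ereg with 16.7 ± 3.56 and 27.6 ± 4.88 TPM (SD, n = 3). The ratio of Ereg to Areg counts was 0.709, 0.61 and 0.608 in Pdcd1f/f libraries and 0.775, 0.879 and 0.761 in Pdcd1f/fLysMcre libraries. The ratio was highest, within each genotype, in the library that stood apart by GC content.

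Ereg and Areg lie beside a cluster of CXC chemokine genes, and the genes within 1 Mb of Ereg, chosen after their values were seen, did not move as a block. Ppbp and Cxcl3, chemokine genes 305 and 285 kb before Ereg, were higher (log2 fold changes 0.83 and 0.88, adjusted p = 0.000202 and 2.84e-05 from edgeR). Cxcl1 and Cxcl2, which lie between Cxcl3 and Ereg, had log2 fold changes of −0.02 and 0.15 (adjusted p = 0.869 and 0.151 from edgeR). Mthfd2l, the nearest tested gene before Ereg, had a log2 fold change of −0.17, and Btc, the EGF family gene beyond Areg, one of 0.86 with an SE of 0.50 (adjusted p = 0.569 and 0.324 from edgeR).

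Kitl had the largest difference of the 9 members tested. Stem cell factor binds KIT on mast cells, progenitors and melanocytes, and Kitl lies on chromosome 10 from 100015630 to 100100416. Kitl had 190.1, 158.7 and 176.3 normalized counts in Pdcd1f/f libraries and 406.2, 295.2 and 357.9 in Pdcd1f/fLysMcre libraries. Every Pdcd1f/fLysMcre library lay well above every Pdcd1f/f library. Of the Pdcd1f/fLysMcre libraries replicate 2 was the lowest, although the Kitl transcript, with 39.3% GC, is as poor in GC as that of Ereg, which was highest there. The means of 175 ± 15.8 and 353 ± 55.6 (SD, n = 3) gave a 2.02-fold difference with a log2 fold change of 1.01 ± 0.14 (SE) and a 95% interval of 0.69 to 1.33. Over the 13 alternative fits its log2 fold change lay between 0.90 and 1.19. Per length the level stayed low, at 2.08 ± 0.21 TPM in Pdcd1f/f and 4.25 ± 0.65 TPM in Pdcd1f/fLysMcre TAMs (SD, n = 3).

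Kitl lies 17.2 Mb from Lyz2, the site of Cre, and 12.1 Mb from Igf1 on the same chromosome. Within 5 Mb of Kitl 19 other genes were tested and 1 passed the threshold. This was Dusp6, a phosphatase gene of the ERK pathway 0.748 Mb from Kitl, which was lower in Pdcd1f/fLysMcre TAMs (log2 fold change −0.35 ± 0.07 SE, adjusted p = 0.0144 from edgeR). Between Kitl and Lyz2 37 genes were tested, of which 1 passed, Osbpl8, a lipid transfer gene named after its value was seen (log2 fold change 0.54). On the autosomes outside both stretches 761 of 13918 genes passed, or 5.47%, against 5.26% and 2.7% in the stretches. The median log2 fold change was 0.12 within 5 Mb of Kitl and 0.17 between Kitl and Lyz2, against −0.0052 on those other autosomal stretches. These counts depend on the libraries used. Without Pdcd1f/f replicate 1 they were 7 and 9, and without it and Pdcd1f/fLysMcre replicate 2 they were 8 and 13, in fits in which 3181 and 3757 of all genes passed. No gene within 5 Mb of Kitl passed without Pdcd1f/f replicate 2, without Pdcd1f/f replicate 3, without Pdcd1f/fLysMcre replicate 1 or without Pdcd1f/fLysMcre replicate 2.

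**Figure D2:**
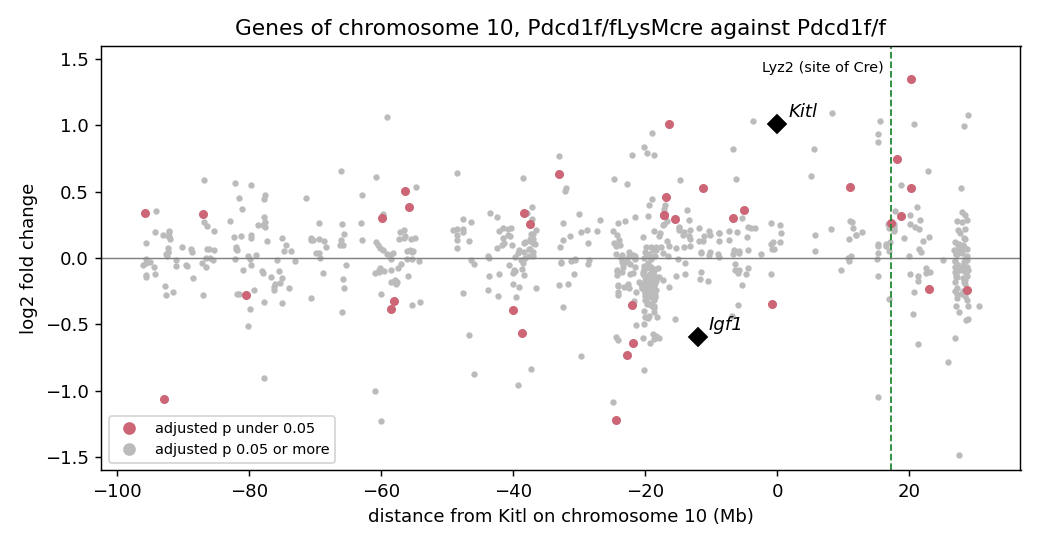
Log2 fold change (vertical axis) of the genes tested on chromosome 10 against their distance from Kitl in Mb (horizontal axis), with the position of Lyz2 as a dashed line. Kitl lies at 1.01 and Igf1 at −0.60, while most genes around them lie close to zero, and Lyz2, Lyz1 and the 3 genes beyond the vertical range are not drawn.

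The 5 tested genes whose levels over the 6 libraries were most like those of Kitl, by the root mean square difference of log2 CPM deviations, were Slc1a4 (0.107), Ism1 (0.117), A430103D13Rik (0.144), Ankrd1 (0.149) and Met (0.157). Slc1a4 encodes a neutral amino acid transporter and had 183, 125 and 140 counts in Pdcd1f/f and 327, 253 and 273 counts in Pdcd1f/fLysMcre libraries. Ism1, A430103D13Rik and Ankrd1 had at most 53 counts in any library, and Met encodes the receptor of another member, Hgf. The likeness follows the genotype difference and was ranked over all tested genes, so it carries no test. Markers of mast cells and basophils, which respond to stem cell factor, were nearly absent, with Cpa3, Mcpt4, Tpsb2, Fcer1a, Ms4a2 and Mcpt8 at a mean of at most 3 counts, and the 7 listed genes summed to 2.72 to 3.13 TPM in Pdcd1f/f and 3.43 to 4.63 TPM in Pdcd1f/fLysMcre libraries. Hdc, the gene of histidine decarboxylase, was the 1 tested and had 262, 226 and 251 counts in Pdcd1f/f against 384, 322 and 412 in Pdcd1f/fLysMcre TAMs. Its genotypes did not overlap, with a log2 fold change of 0.47 (adjusted p = 0.0599 from edgeR), and its part in the difference of Kitl was not tested.

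Csf1, Pdgfa and Pdgfb were among the 4 members tested that did not pass the threshold, and their genotypes overlapped. Csf1 encodes macrophage colony-stimulating factor (chromosome 3, 107741048 to 107760469). Csf1 had 586.1, 603.3 and 699.9 normalized counts in Pdcd1f/f and 667.1, 674.3 and 695.1 in Pdcd1f/fLysMcre libraries. Pdcd1f/f replicate 3 held the highest value of all 6. The means were 629.8 ± 61.3 and 679 ± 14.6 (SD, n = 3), with a log2 fold change of 0.11 ± 0.09 (SE) and a 95% interval of −0.10 to 0.32. Over the 13 alternative fits the log2 fold change of Csf1 lay between 0.05 and 0.22.

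Pdgfb and Pdgfa encode the chains of platelet-derived growth factor, a mitogen of fibroblasts and pericytes. Pdgfb (chromosome 15, 79995874 to 80014977) had the most counts of all members, with 5581, 6465 and 6891 normalized counts in Pdcd1f/f and 6924, 5978 and 7323 in Pdcd1f/fLysMcre libraries. The lowest library of each genotype was the one that stood apart by GC content, and the Pdgfb transcript has 60% GC, the highest share among the members. Its log2 fold change was 0.10 ± 0.10 (SE) with a 95% interval of −0.11 to 0.31, and with GC and length offsets it was 0.26 and past the threshold. Pdgfa (chromosome 5, 138976014 to 138997370) had 1604, 1778 and 1850 normalized counts in Pdcd1f/f and 1846, 1820 and 1905 in Pdcd1f/fLysMcre libraries. The Pdcd1f/fLysMcre values fell inside or just above the Pdcd1f/f range, with a log2 fold change of 0.09 ± 0.08 (SE), a 95% interval of −0.07 to 0.26 and a value of 0.17, past the threshold, with the offsets. An antisense gene, 6330403L08Rik, overlaps Pdgfa with 280 to 452 counts, and since it is not stated whether reads were counted by strand, its reads may not have been kept apart from those of Pdgfa. Per length Pdgfb was 2.46 to 2.88 times as abundant as Pdgfa in the 6 libraries.

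Igf1 was the 1 member that passed the threshold as lower. Insulin-like growth factor 1 supports growth and survival through IGF1R, and its gene lies on chromosome 10 from 87858265 to 87937042. Igf1 had 369.1, 405.6 and 359.2 normalized counts in Pdcd1f/f libraries and 254.4, 289.5 and 204.5 in Pdcd1f/fLysMcre libraries. The genotypes did not overlap, and the Pdcd1f/fLysMcre libraries were more spread. The mean fell from 378 ± 24.4 to 249.5 ± 42.7 (SD, n = 3), with a log2 fold change of −0.60 ± 0.14 (SE), a 95% interval of −0.90 to −0.29 and a level of 2.68 ± 0.19 TPM against 1.79 ± 0.31 TPM. With GC and length offsets the log2 fold change of Igf1 was −0.76. Igf1 kept its call without Pdcd1f/f replicate 1 or Pdcd1f/fLysMcre replicate 2 and lost it without each of the other 4 libraries, with log2 fold changes from −0.72 to −0.48. Of 53 other genes tested within 5 Mb of Igf1, 5 passed the threshold and all were higher, namely Txnrd1, Chst11, Aldh1l2, Ckap4 and Spic, named after their values were seen. This was 9.43% of the genes there, against 5.43% of all genes tested, and the median log2 fold change of the 53 genes was 0.14. The difference between these shares was not tested.

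Kitl and Igf1, both low per length and both on chromosome 10, thus changed in opposite directions. The ratio of Kitl to Igf1 TPM was 0.863, 0.655 and 0.822 in Pdcd1f/f libraries and 2.67, 1.71 and 2.93 in Pdcd1f/fLysMcre libraries. Igf1 was above Kitl in each Pdcd1f/f library and below it in each Pdcd1f/fLysMcre library.

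Hgf, which encodes hepatocyte growth factor, the ligand of MET, lies on chromosome 5 from 16553495 to 16620152. Hgf had 987.6, 944.1 and 853.2 normalized counts in Pdcd1f/f and 775.3, 825.7 and 678.4 in Pdcd1f/fLysMcre libraries. Each Pdcd1f/fLysMcre library lay below each Pdcd1f/f library, with a narrow gap between the nearest ones. The means were 928 ± 68.6 and 759.8 ± 74.9 (SD, n = 3), and the log2 fold change of −0.29 ± 0.10 (SE), with a 95% interval of −0.50 to −0.07, was not past the threshold over all genes. With GC and length offsets the log2 fold change of Hgf was −0.41, and without both libraries that stood apart it was −0.31, each past the threshold.

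**Figure D3:**
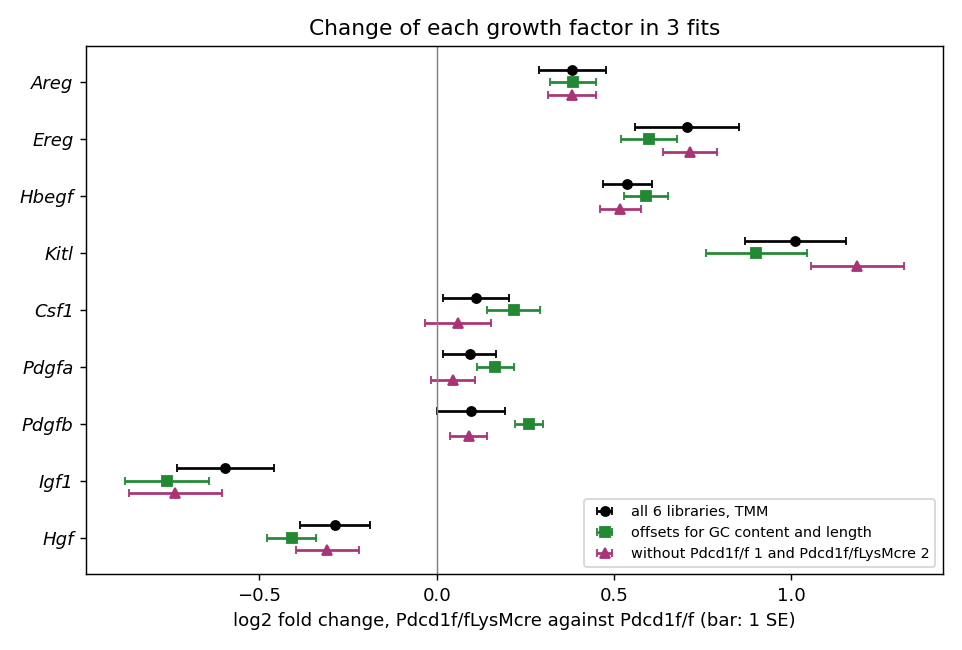
Log2 fold change and SE (horizontal axis) of the 9 members tested in the fit of all 6 libraries, in the fit with GC and length offsets, and in the fit without Pdcd1f/f replicate 1 and Pdcd1f/fLysMcre replicate 2. The direction of every member is the same in the 3 fits, and the offsets move Igf1, Hgf, Hbegf, Pdgfa, Pdgfb and Csf1 away from zero and Kitl and Ereg towards it.

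Ranked by level per length in Pdcd1f/f TAMs, the order was Pdgfb (106 ± 9.12 TPM), Areg (87.7 ± 11.0), Pdgfa (39.2 ± 2.06), Hbegf (35.9 ± 2.20), Ereg (16.7 ± 3.56), Hgf (9.07 ± 0.86), Csf1 (8.35 ± 0.64), Igf1 (2.68 ± 0.19), Kitl (2.08 ± 0.21) and Tgfa, near 0. In Pdcd1f/fLysMcre TAMs Areg (116 ± 10.8 TPM) and Pdgfb (115 ± 11.8) lay within their spread of each other, Hbegf (52.9 ± 3.40) lay above Pdgfa (42.4 ± 1.10), Csf1 (9.16 ± 0.24) above Hgf (7.53 ± 0.74) and Kitl (4.25 ± 0.65) above Igf1 (1.79 ± 0.31; SD, n = 3). In Pdcd1f/f TAMs the neighbours Pdgfb and Areg, Pdgfa and Hbegf, and Hgf and Csf1 differed by less than the sum of their SDs.

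**Figure D4:**
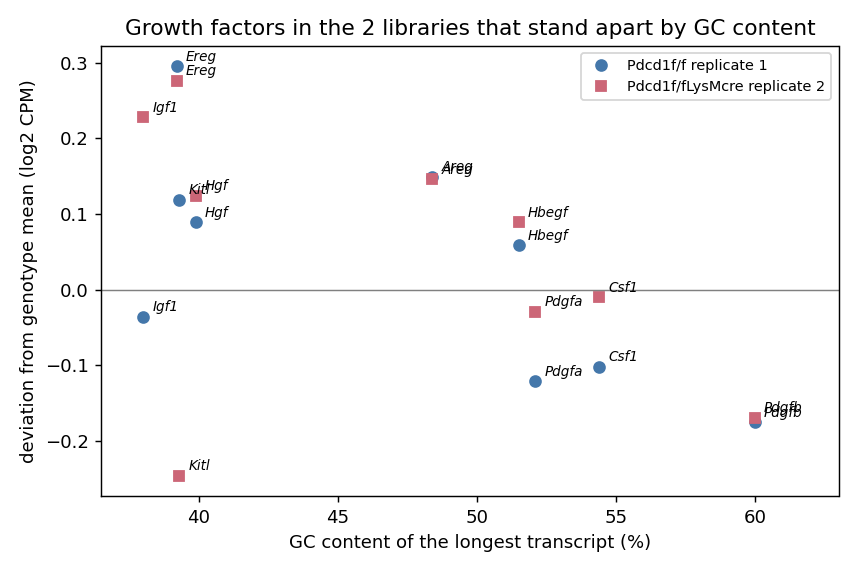
Deviation of each member from its genotype mean in log2 CPM (vertical axis) against the GC content of its longest transcript in percent (horizontal axis), in the 2 libraries that stood apart by GC content. Ereg, with 0.295 and 0.276, lies above zero and Pdgfb, with −0.175 and −0.169, below zero in both, while Kitl lies at 0.119 in Pdcd1f/f replicate 1 and at −0.246 in Pdcd1f/fLysMcre replicate 2.

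The receptors of these ligands were examined in the same TAMs from a list of 11 genes, of which 10 were tested, 1 was higher and 2 were lower past the threshold. This was 30% of the receptors tested, against 5.43% of all genes tested, and the difference between the shares was not tested. Met, the receptor of Hgf, had 2673, 1779 and 1828 counts in Pdcd1f/f and 4495, 4222 and 3788 counts in Pdcd1f/fLysMcre libraries. Its genotypes did not overlap, and Met rose 1.84-fold (log2 fold change 0.88 ± 0.09 SE, adjusted p = 0.00055 from edgeR). All 13 alternative fits kept this call. Igf1r and Csf1r, the receptors of Igf1 and Csf1, were lower, with log2 fold changes of −0.36 and −0.32 (adjusted p = 0.0202 and 0.0308 from edgeR). Both calls held without Pdcd1f/f replicate 1 or Pdcd1f/fLysMcre replicate 3 and were lost without each of the other 4 libraries, and over these 6 fits the log2 fold changes lay between −0.39 and −0.32 for Igf1r and between −0.38 and −0.27 for Csf1r. The fitted log2 fold changes of Hgf and Met thus had opposite signs, while Igf1 and Igf1r were both lower.

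The EGF family receptors were low in these TAMs, although 3 of their ligands were higher. Egfr had 0.67 ± 0.17 TPM in Pdcd1f/fLysMcre TAMs with a log2 fold change of −0.18 (adjusted p = 0.619 from edgeR), and Erbb3 had 2.93 ± 0.23 TPM with one of 0.14 (adjusted p = 0.473). Erbb2, the lowest of the receptors tested, had 0.16 ± 0.04 TPM with a log2 fold change of −0.37 (adjusted p = 0.602 from edgeR), and Erbb4 had 0 counts in every library, which allows up to 0.0717 CPM. Kit, the receptor of stem cell factor, had 1.85 ± 0.44 TPM with a log2 fold change of 0.25 (95% interval −0.12 to 0.63, adjusted p = 0.39 from edgeR). Insr, Pdgfra and Pdgfrb had log2 fold changes of −0.04, 0.05 and −0.42 (adjusted p = 0.796, 0.91 and 0.326 from edgeR). Csf1r was by far the most abundant of the list, at 664 ± 33.9 TPM in Pdcd1f/fLysMcre TAMs (SD, n = 3).

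**Figure D5:**
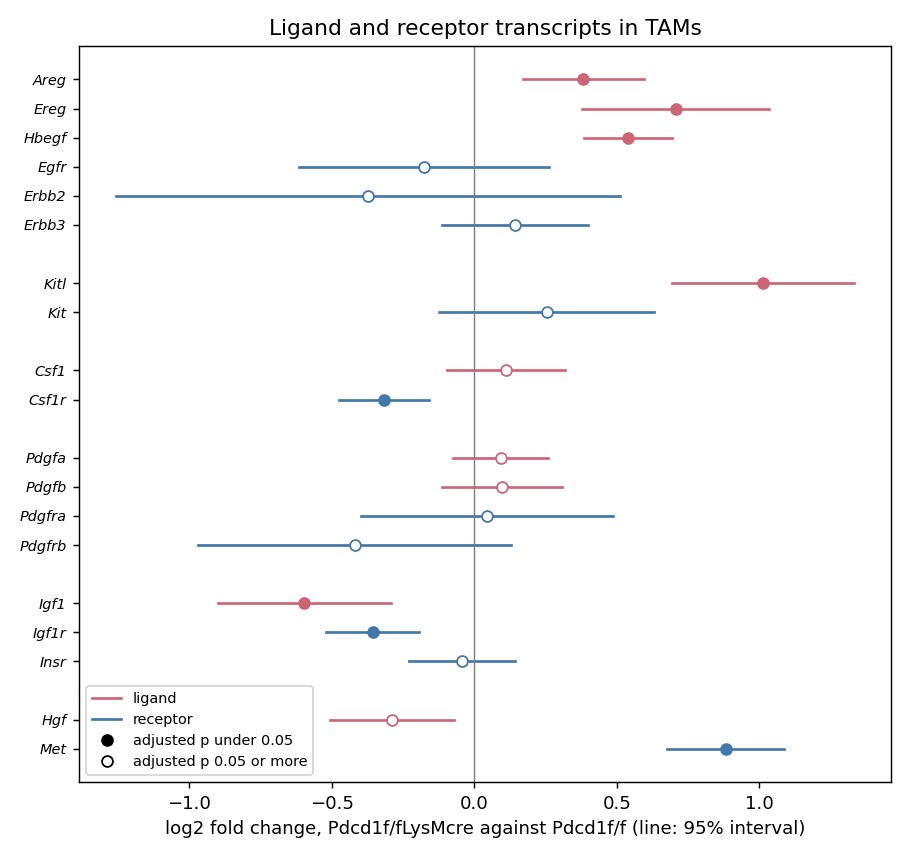
Log2 fold change with its 95% interval (horizontal axis) for ligands and their receptors, grouped by pair, with filled circles where the adjusted p was under 0.05. Among the receptors Met lies above zero at 0.88 and Igf1r and Csf1r below it at −0.36 and −0.32.

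Among 30 genes that process or bind these ligands, 18 were tested and 1 passed the threshold, or 5.56%, against 5.43% of all genes tested. Igfbp4, which encodes a binding protein of IGF1, had 3777, 4509 and 4789 normalized counts in Pdcd1f/f and 2848, 2718 and 3011 in Pdcd1f/fLysMcre libraries. It fell with no overlap between the genotypes (log2 fold change −0.61 ± 0.09 SE, adjusted p = 0.00393 from edgeR), a call kept by all 13 alternative fits. Igf1, Igf1r and Igfbp4 were each lower, but they were set together after their values were seen, and no test covers them as a group. Insr, Igf2r, Igfbp6 and Igfbp7 did not pass, with log2 fold changes of −0.04, 0.09, −0.44 and −0.63 (adjusted p = 0.796, 0.491, 0.114 and 0.578 from edgeR). Over the 13 alternative fits Igf2r lay between 0.02 and 0.16, past the threshold in 2, and Igfbp6 between −0.57 and −0.29, past it in 3. Adam17, Adam10, Rhbdf1, Plau, Igf2r, Igfbp6 and Igfbp7 were named after their values were seen. Adam17 and Adam10, the main proteases that release EGF family ligands, had log2 fold changes of 0.06 and 0.15 (adjusted p = 0.621 and 0.256 from edgeR). Rhbdf1, which encodes iRhom1, a regulator of ADAM17, had a log2 fold change of −0.49 (adjusted p = 0.0881 from edgeR) and passed as lower in 6 of the 13 alternative fits, among them that with GC and length offsets (−0.36, adjusted p = 0.0257 from edgeR) and that without both libraries that stood apart (−0.45, adjusted p = 0.00568). Plau, which encodes urokinase, an activator of pro-HGF, had a log2 fold change of 0.23 (adjusted p = 0.0528 from edgeR). Plau passed as higher in 6 of the 13 alternative fits, among them that with GC and length offsets (0.24, adjusted p = 0.00106 from edgeR) and that without both libraries that stood apart (0.19, adjusted p = 0.00417). Adam10 passed without both libraries (0.14, adjusted p = 0.0343 from edgeR) but was at 0.06 with the offsets (adjusted p = 0.361). Mmp9, a matrix protease gene, was the highest of this list at 3037 ± 197 TPM in Pdcd1f/fLysMcre TAMs (SD, n = 3) with a log2 fold change of −0.13 (adjusted p = 0.296 from edgeR), −0.12 without both libraries (adjusted p = 0.0391) and −0.0090 with the offsets (adjusted p = 0.901), and Igfbp1 was not counted in any library.

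Of 33 other growth factor genes, 26 were tested, 3 were higher and 1 was lower past the threshold, and their median log2 fold change was −0.01. This was 15.4% of those tested, against 5.43% of all genes tested, and the difference between the shares was not tested. Pgf, the gene of placental growth factor, a VEGF family ligand, had 2144, 2361 and 2507 normalized counts in Pdcd1f/f and 3020, 2806 and 3157 in Pdcd1f/fLysMcre libraries, without overlap (log2 fold change 0.36 ± 0.08 SE, adjusted p = 0.0274 from edgeR). Csf3, which encodes the neutrophil growth factor G-CSF, and Fgf7, a fibroblast growth factor gene that acts on epithelium, were higher with log2 fold changes of 0.56 and 0.88 (adjusted p = 0.0245 and 0.0448 from edgeR). Gas6, which encodes the ligand of the receptors AXL and MERTK, was lower with a log2 fold change of −0.59 (adjusted p = 0.00758 from edgeR). These calls were lost in some of the 6 fits that left out 1 library each. Pgf passed in 3 of them (without Pdcd1f/f replicate 1, Pdcd1f/f replicate 3 or Pdcd1f/fLysMcre replicate 2), Gas6 in 4 (not without Pdcd1f/f replicate 2 or Pdcd1f/fLysMcre replicate 1) and Csf3 and Fgf7 in 1 each, that without Pdcd1f/f replicate 1, and over these 6 fits the log2 fold changes spanned 0.29 to 0.41, −0.71 to −0.53, 0.49 to 0.65 and 0.66 to 1.07. Pdgfc, a platelet-derived growth factor gene named after its values were seen, had a log2 fold change of −0.33 (adjusted p = 0.0504 from edgeR) and passed as lower in 7 of the 13 alternative fits, among them that with GC and length offsets (−0.30, adjusted p = 0.0117 from edgeR), that without both libraries (−0.32, adjusted p = 0.00793) and that with the replicate block (adjusted p = 0.047). Grn, the gene of progranulin, was the highest of this list at 1666 ± 143 TPM in Pdcd1f/fLysMcre TAMs (SD, n = 3) with a log2 fold change of −0.18 (adjusted p = 0.325 from edgeR), −0.31 without Pdcd1f/f replicate 1 (adjusted p = 0.0149), −0.24 without both libraries (adjusted p = 0.00154) and −0.05 with the offsets (adjusted p = 0.548), and Igf2 was not counted in any library.

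Several of the members are also made by cells other than macrophages, and the markers of such cells were set beside them. For the counts of markers below, 5.43% of all genes tested passed the threshold. The labels give CD11b+F4/80+ for these cells, and the methods describe, for TAMs of the Shp2 mice of the same study, a sort of live CD45+ and Ly6G− cells, gates that would leave out cells without CD45 and neutrophils. Of 11 fibroblast or fibrosarcoma genes, 8 were tested, 1 was higher and 2 were lower, and the list summed to 503 to 593 TPM in Pdcd1f/f and 759 to 855 TPM in Pdcd1f/fLysMcre libraries. Pdpn, which macrophages also express, made up most of that sum and rose (log2 fold change 0.56), whereas Col1a2 and Fap fell (95% intervals of the log2 fold change −1.41 to −0.59 and −1.03 to −0.31, adjusted p = 0.0121 and 0.039 from edgeR). Of 8 endothelial genes 5 were tested and Pecam1 was lower (log2 fold change −0.62), Tek and Cldn5 were nearly at 0, and the list summed to 20.5 to 21.6 TPM against 16.1 to 18.1 TPM. Of 9 T, NK and innate lymphoid genes 4 were tested and Il7r was higher (log2 fold change 0.69), Cd3e, Cd3d and Cd8a were nearly at 0, and the list summed to 61.7 to 64.5 TPM against 91.1 to 100 TPM. Of 5 platelet genes 3 were tested and Ppbp was the 1 past the threshold, as higher (log2 fold change 0.83). Itga2b and Treml1 had log2 fold changes of −0.42 and −0.94 (adjusted p = 0.527 and 0.184 from edgeR). Gp1ba and Gp9, which define platelets, had a mean of at most 3 counts. The platelet list, of which Ppbp made up most, summed to 276 to 300 TPM against 484 to 573 TPM. Of 8 neutrophil genes 6 were tested and Csf3r and Mmp8 were lower (log2 fold changes −0.51 and −0.48, adjusted p = 0.00686 and 0.00393 from edgeR). S100a8, S100a9, Cxcr2 and Retnlg did not pass, with log2 fold changes of 0.23, 0.12, 0.03 and −0.95 (adjusted p = 0.22, 0.412, 0.938 and 0.11 from edgeR). Ly6g was nearly at 0, and the neutrophil list summed to 299 to 356 TPM against 315 to 334 TPM. The 4 monocyte genes were tested with none past the threshold and summed to 612 to 681 TPM against 609 to 689 TPM. Of 5 dendritic cell genes 3 were tested and none passed. Their log2 fold changes were 0.67 for Flt3, 0.69 for Zbtb46 and 0.03 for Ccr7 (adjusted p = 0.137, 0.12 and 0.928 from edgeR). Xcr1 and Clec9a were nearly at 0, and the dendritic list summed to 5.85 to 7.61 TPM against 6.38 to 8.66 TPM. Epithelial genes summed to 9.12 to 10.1 TPM against 9.01 to 11.9 TPM, with none of the 3 tested past the threshold. The part of other cells in the differences of the growth factors was not tested.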

How the data were processed

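RNA-seq libraries of sorted TAMs, 3 per genotype, were analysed. The authors made stranded polyA libraries read as paired ends, removed adapters with Cutadapt 2.5, aligned reads to GRCm38 with STAR 2.7.3a, counted them per Ensembl gene with featureCounts (Subread 1.6.2) and deposited raw counts. The strand setting and the handling of multi-mapped reads were not given in the sources used here. The authors also deposited a normalized signal, the counts divided by 1 DESeq2 1.24.0 size factor per library, which are the normalized counts printed here.

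Genotypes and replicate numbers came from the labels. Raw counts were tested with edgeR 4.0.16 (R 4.3.3), with filterByExpr (minimum count 10, total 15), TMM, robust glmQLFit, the two-sided glmQLFTest and Benjamini-Hochberg adjustment over 14469 genes at 0.05. Standard errors and 95% intervals derive from the F statistic. An exact permutation test of 3 against 3 libraries cannot give a p under 0.1, so none was used. TPM used merged exon lengths of GENCODE M21 (GRCm38), which also gave symbols, positions and GC content. The script was tested on simulated counts with the same spread for all genes and no dependence on GC content. That test therefore does not cover the GC differences between these libraries. Total counts ranged from 41833823 to 51417209, so genes with few counts are imprecise. Chi-square statistics between replicates were 5.58 to 44.3 per gene, above sampling noise for every pair.

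Members, lists and alternatives were chosen with earlier results of these data known. Genes named are all members, their receptors, list genes past the threshold, the highest and lowest of each list, genes past the threshold near Kitl, the 5 most like Kitl, markers, and others outside this rule, named after their values were seen, as stated beside them. Alternatives were RLE size factors, no low-count filter (at least 1 count), DESeq2 1.42.0, the replicate block, loess offsets (span 0.5) for GC content and length with or without that block, leaving out each library in turn, and the libraries apart by GC content left out together. Protein sequences were not used here.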

Additional observations from a re-analysis of the deposited data

How the results depend on the processing

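In 13 alternative fits 208 values were recomputed, which were log2 fold changes of members and counts of genes past the threshold. No log2 fold change reversed its direction, and counts have no direction. Of the 208 values, 134 kept their call or, for counts, stayed within 1.5 times the main count. A further 13 lost a call, 7 gained one and 54 counts moved by over 1.5 times. The members past the threshold were 5 of 10 with all libraries, 8 with GC and length offsets, with or without the replicate block, and 2 to 5 with 1 library left out (2 without Pdcd1f/f replicate 2, Pdcd1f/f replicate 3 or Pdcd1f/fLysMcre replicate 1). With these offsets, with or without the block, the log2 fold change was −0.41 for Hgf, 0.17 for Pdgfa and 0.26 for Pdgfb, each then past the threshold, and Hgf was at −0.31 without both libraries apart by GC content. With 1 library left out it was −0.72 to −0.48 for Igf1, 0.31 to 0.45 for Areg and 0.55 to 0.86 for Ereg.

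All genes past the threshold numbered 786, against 1951 without the low-count filter, 1528 with DESeq2, 2698 with the offsets, 2767 with offsets and block, 3757 without both libraries apart by GC content and 222 to 3181 with 1 library left out. In the same order the processing and binding genes numbered 1, against 6, 3, 3, 5, 8 and 1 to 6. The other growth factors numbered 4, against 7 without the filter, 7 with offsets, 8 with offsets and block, 7 without both libraries and 0 to 8 with 1 left out, and the receptors 3, against 1 to 3 with 1 left out. Genes within 5 Mb of Kitl numbered 1, against 7, 3, 5, 5, 8 and 0 to 7, and those between Kitl and Lyz2 1, against 3, 3, 7, 7, 13 and 1 to 9. The cause of these shifts was not tested. The labels do not state that replicate numbers pair the libraries. Correlations of deviations were −0.115, −0.46 and 0.704 for numbers 1, 2 and 3. They cannot decide whether libraries were paired, because the deviations also go with GC content. The replicate block left 5 members past the threshold and gave 1027 genes in all and 2 within 5 Mb of Kitl.

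Each genotype had 3 libraries, Tgfa and Erbb4 were below what this depth can show, and whether reads were kept apart by strand at Pdgfa is not stated.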
